A study of Mus musculus with 6 samples.

Results

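Elavl, Nova and Rbfox genes encode 3 families of RNA-binding proteins that control how transcripts are spliced, stabilized and translated, and most of their members are known from neurons. The genes were taken by symbol from the deposited gene tables, which gave Elavl1, Elavl2, Elavl3, Elavl4, Nova1, Nova2, Rbfox1, Rbfox2 and Rbfox3, all 9 of the genes sought among 23038 listed. RNA came from NSC-34, a mouse motor neuron-like hybrid of neuroblastoma and spinal cord cells, grown in DMEM with fetal calf serum. 3 libraries came from cells given control siRNA (siNC) and 3 from cells given siRNA against Qk (siQk), which encodes Quaking, another RNA-binding protein that controls splicing. 3 different siRNAs against Qk were used, and the labels do not say which siQk library received which, so a difference between siRNAs and a difference between cultures cannot be told apart. The cells come from 1 hybrid line, and the RNA of each library is from a bulk culture, in which fewer cells of a kind and less RNA per cell cannot be told apart.

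Elavl proteins bind AU- and U-rich stretches and often stabilize the transcripts that hold them. Elavl1 (HuR) is present in nearly all cell types, whereas Elavl2, Elavl3 and Elavl4 (HuB, HuC and HuD) are typical of neurons. Nova proteins bind clusters of short CA-containing motifs and set the splicing of many synaptic exons. Rbfox proteins bind the sequence TGCATG, written here as DNA, beside exons, and Rbfox3 is the antigen called NeuN, a common stain for mature neurons.

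Library totals ran from 43000503 to 53565950 expected counts, and TMM factors, which correct for composition, from 0.956 to 1.02. Qk stood at 9.67, 8.18 and 14.9 RPKM (counts scaled by exon length and library total) in siNC 1 to 3 and at 1.39, 1.71 and 1.10 RPKM in siQk 1 to 3. Every siQk library was below every siNC library, and the siQk mean was 12.8% of the siNC mean. The fitted change of Qk was -2.997 on the log2 scale (SE 0.34, adjusted p = 0.0149 by the edgeR quasi-likelihood test with Benjamini-Hochberg adjustment over 12665 genes), and Qk was the only gene called. Without siNC 1 it was -3.09 with an adjusted p of 0.125, past the limit of 0.1 used for a call. Of 12 neuronal markers, 9 were over 1 RPKM in every library, from Syn1 at 4.03 to 5.59 RPKM to Uchl1 at 963 to 1329 RPKM. Dcx was at 0 counts in all 6 libraries, Stmn2 at 0 in 5 of them and at 0.0080 RPKM in siNC 1, and Map2 was not listed under that symbol. Of 8 motor neuron markers, Isl1, Isl2, Slc18a3 and Prph were over 1 RPKM in every library, while Chat, which makes acetylcholine, reached at most 0.141 RPKM and Mnx1 at most 0.0944 RPKM. The label of a motor neuron-like line was therefore met by some of its markers and not by others.

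The sequences below show where the Quaking core motif occurs in the member transcripts, because the comparison asks what happens when Quaking is reduced. The motif was searched as ACTAAC or ACTAAT on the transcript strand of the longest basic protein-coding transcript of each gene in GENCODE release 21 (GRCm38). It occurred in 4 of 9 members, once in each, and in 43.3% of 21875 genes. The capitals mark the motif, with 12 bases on each side.
Elavl1: tagactgcgctgACTAACcagtcactctgg
Elavl2: cggcaactccaaACTAACatggcagtcaga
Nova2: aaaacattttcaACTAACccctactttttt
Rbfox3: ctattaaagtttACTAACcatcttcctgtc

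The Elavl1 site lies in the 3′ UTR, in exon 6, at chr8:4289279-4289308 on the minus strand. The Elavl2 site lies in the 5′ UTR, in exon 2, at chr4:91311633-91311662 on the minus strand. The Nova2 site is in the 3′ UTR, in exon 4, at chr7:18962083-18962112 on the plus strand. The Rbfox3 site is in the 3′ UTR, in exon 15, at chr11:118491986-118492015 on the minus strand. None of the 4 sites had the half-site TAAC or TAAT at 1 to 20 bases from the motif. Among genes with transcripts of like length (0.8 to 1.25 times), 68.6% held the motif for Elavl1, 58.0% for Elavl2, 81.7% for Nova2 and 47.0% for Rbfox3. The Qk transcript itself held 7 matches. A match is only a run of letters, and the other 5 members had none in these transcripts. For those 5, the motif was held by 63.8% (Elavl3), 57.6% (Elavl4), 76.1% (Nova1), 46.1% (Rbfox1) and 74.9% (Rbfox2) of genes of like length. The Rbfox motif TGCATG, searched in the same way, occurred in 7 of 9 members and in 51.6% of all genes. Among genes with transcripts of like length the share was higher, from 56.5% for Rbfox1 to 88.6% for Nova2. TGCATG was not found in the transcripts of Elavl2 and Rbfox2. Nova1 held 6 matches of TGCATG in its transcript, against a median of 2 in the transcripts of 1960 genes of like length, and all 6 lay in its 3′ UTR.

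Because the members of a family resemble each other, reads could in principle be split between them. Within a family, coding sequences were 69.2% to 78.1% identical over aligned bases. The longest runs shared by a pair were 29 bases, and they are printed because they bound how far a 75-base read could match a paralog in the coding region.
Elavl3 and Elavl4: TTCGGCTTCGTCACCATGACCAACTACGA
Rbfox1 and Rbfox2: ACCGTGGTAGAGGGCCGTAAAATCGAGGT

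All letters of these lines are capitals because all are shared. The first run is in exon 7 of Elavl3 (chr9:22018600-22018628, minus strand) and in exon 7 of Elavl4 (chr4:110206429-110206457, minus strand). The second crosses exons 7 to 8 of Rbfox1 (chr16:7292251-7294071, plus strand) and exons 6 to 7 of Rbfox2 (chr15:77102938-77105603, minus strand). No 75-base window of any annotated transcript of a member was shared with another member. Elavl2, Elavl4, Rbfox1, Rbfox2 and Rbfox3 shared no window with any other annotated gene. Nova2 shared 30.2% of its windows with Gm26821, an annotated gene on the opposite strand, whose exons overlap 31.7% of the annotated exon bases of Nova2. The kit as named keeps no strand, so reads from Nova2 and Gm26821 cannot be told apart there and the Nova2 level is uncertain to that extent. For Elavl1, Elavl3 and Nova1 the shared windows were 1.08%, 2.61% and 2.72%, with Ccl25, Gm49318 and Gm33869.

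The 9 members spanned levels from 42.7 RPKM for Elavl1 to 0.0610 RPKM for Rbfox3, as means over the 6 libraries. Elavl1 came first, then Rbfox2 (29.9 RPKM), Elavl4 (23.9 RPKM), Elavl3 (11.4 RPKM), Nova2 (5.81 RPKM), Elavl2 (4.69 RPKM), Nova1 (4.53 RPKM), Rbfox1 (0.457 RPKM) and Rbfox3. RPKM is per exon length, so levels can be set side by side between genes. The ranges of neighbours in this order did not overlap for Elavl1 over Rbfox2, Elavl4 over Elavl3, Elavl3 over Nova2, Nova1 over Rbfox1 and Rbfox1 over Rbfox3. The ranges of Rbfox2 and Elavl4 overlapped, although Rbfox2 was above Elavl4 in 6 of 6 libraries. Nova2 was above Elavl2 in 5 of 6 libraries and Elavl2 above Nova1 in 3 of 6, so Elavl2 and Nova1 could not be ordered.

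**Figure D1:**
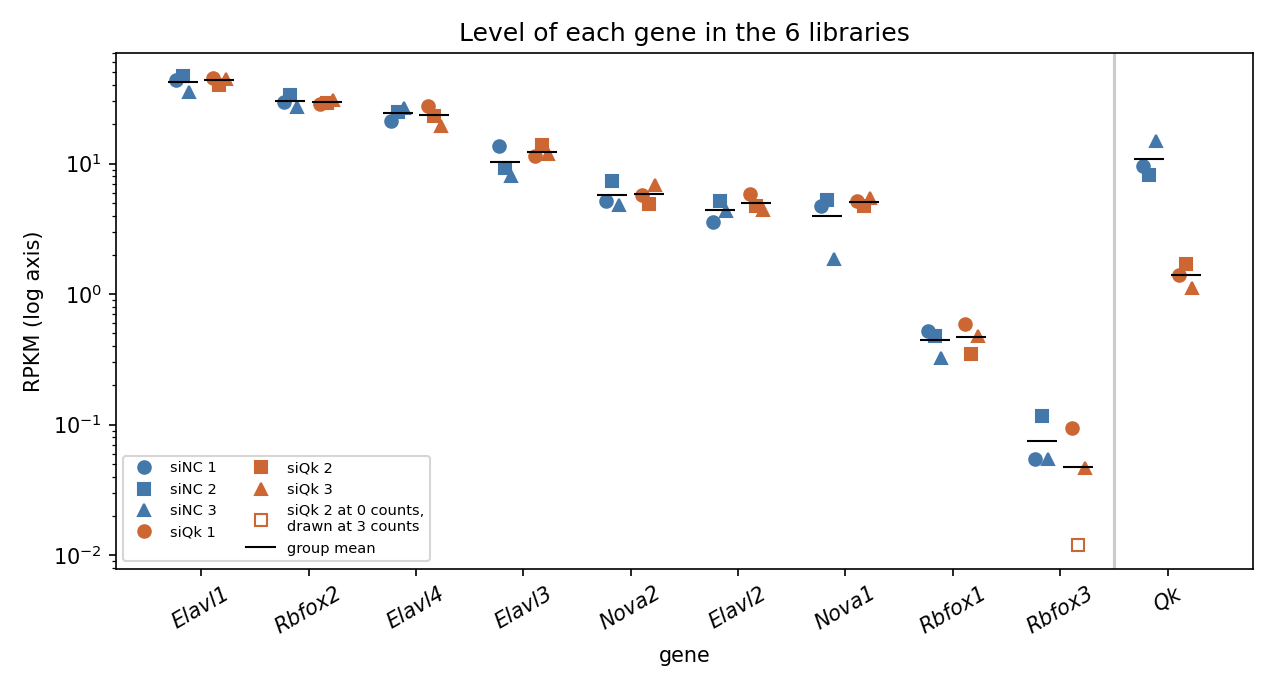
RPKM on a log axis for the 9 members, ordered by mean level, and for Qk, in 3 siNC (blue) and 3 siQk (orange) libraries, with replicate 1 as circles, 2 as squares, 3 as triangles and group means as black lines. The members' points overlap between groups, whereas the siQk points of Qk (1.10 to 1.71 RPKM) lie below its siNC points, and the open square is siQk 2 for Rbfox3, at 0 counts and drawn at the level of 3 counts.

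After siRNA against Qk, 0 of the 8 members that passed the filter on low counts were called changed, against 0.0079% of all 12665 genes tested (1 gene). A call needed a p under 0.01 in the edgeR quasi-likelihood test that also stayed under 0.1 after Benjamini-Hochberg adjustment. At an unadjusted p under 0.05 the count of members was also 0, against 2.89% of all genes. No member had groups that did not overlap in TMM-scaled log2 CPM, whereas 8.52% of all genes did. By DESeq2 and by the likelihood-ratio and exact tests of edgeR the counts of members called, and of members at an unadjusted p under 0.05, were again 0. Of the 8 members, 5 had a fold change above 0 and 3 below, and their median log2 fold change was 0.05, against 0.0034 over all genes tested. The members' median ran from -0.02 without siNC 3 to 0.13 without siQk 2, so its sign rested on single libraries. Every adjusted p of a member was 0.9996. With 3 libraries a group, the intervals below show how large a change these data leave possible.

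Elavl1 (Entrez 15568, GRCm38 chr8:4285382-4325413, minus strand) was measured at 43.8, 46.6 and 35.5 RPKM in siNC 1 to 3 and at 45.6, 40.2 and 44.7 RPKM in siQk 1 to 3. The lowest value was that of siNC 3, and the siQk values lay within the siNC range. The siQk level was 1.02 times the siNC level by the fit, with a 95% interval of 0.810 to 1.29.

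Of the Elavl genes typical of neurons, Elavl4 had the highest level. Elavl4 (Entrez 15572, GRCm38 chr4:110203722-110351909, minus strand) was measured at 21.3, 25.0 and 26.5 RPKM in siNC 1 to 3 and at 27.6, 23.2 and 19.5 RPKM in siQk 1 to 3. The groups interleaved, and the highest and the lowest value were both in siQk libraries. The fold was 0.947 with a 95% interval of 0.716 to 1.252.

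Elavl3 (Entrez 15571, GRCm38 chr9:22015005-22052023, minus strand) was measured at 13.7, 9.28 and 7.98 RPKM in siNC 1 to 3 and at 11.5, 13.8 and 11.9 RPKM in siQk 1 to 3. All siQk values were above siNC 2 and siNC 3, and only siNC 1 kept the groups from separating. The log2 fold change was 0.24 (SE 0.23, edgeR adjusted p = 0.9996). Without siNC 1 it was 0.49, with an unadjusted p of 0.0203 and an adjusted p of 0.941 by the edgeR quasi-likelihood test. In the other direction it was 0.11 without siNC 3, 0.15 without siNC 2 and 0.16 without siQk 2. The fit without siNC 1 was the 1 alternative in which a member went under an unadjusted p of 0.05.

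Elavl2 (Entrez 15569, GRCm38 chr4:91250763-91400785, minus strand) was measured at 3.59, 5.19 and 4.37 RPKM in siNC 1 to 3 and at 5.84, 4.75 and 4.38 RPKM in siQk 1 to 3. The highest value was siQk 1 and the lowest siNC 1, with the other 4 between them. The fold was 1.12 with a 95% interval of 0.802 to 1.56. The sum of Elavl2, Elavl3 and Elavl4 was 39.0 ± 0.48 RPKM (SD, n = 3) in siNC and 40.8 ± 4.69 RPKM (SD, n = 3) in siQk (two-sided exact permutation p = 0.6). The smallest p that 3 against 3 libraries allow is 0.1, so this test could not reach 0.05 for any gene or sum.

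Nova1 (Entrez 664883, GRCm38 chr12:46694517-46818929, minus strand) had the largest fitted change of the 8 members tested and also the largest standard error by the spread of log2 CPM, though not the widest interval. It was measured at 4.70, 5.26 and 1.86 RPKM in siNC 1 to 3 and at 5.21, 4.70 and 5.42 RPKM in siQk 1 to 3. The siNC 3 library stood at 47.3% of the siNC mean, and the other 5 libraries lay between 4.70 and 5.42 RPKM. The log2 fold change was 0.36 (SE 0.45, edgeR adjusted p = 0.9996), with a 95% interval of -0.34 to 1.07. Leaving out 1 library gave 0.04 without siNC 3, 0.51 without siNC 1 and 0.60 without siNC 2, so the value depended on the siNC library left out. The same library was lowest for Nefl (22.7 RPKM, against 52.8 and 91.3 RPKM in siNC 1 and 2) and Tubb3 (142 RPKM, against 346 and 318 RPKM), which encode a neurofilament and a neuronal tubulin. Nefm, another neurofilament gene, was also lowest there (4.74 RPKM, against 11.1 and 23.0 RPKM in siNC 1 and 2). The other markers were mixed, as Nefh and Syp were lowest of the siNC libraries in siNC 3 but lower still in siQk 2, and Ncam1 was highest in siNC 3 (43.1 RPKM). Their part in the Nova1 value was not tested.

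Nova2 (Entrez 384569, GRCm38 chr7:18925888-18965319, plus strand) was measured at 5.16, 7.40 and 4.80 RPKM in siNC 1 to 3 and at 5.79, 4.88 and 6.86 RPKM in siQk 1 to 3. The group means were 5.79 ± 1.41 RPKM (SD, n = 3) and 5.84 ± 0.99 RPKM (SD, n = 3). The fold was 0.996 with a 95% interval of 0.720 to 1.38, the fitted change nearest to none of the 8 members. The overlap with Gm26821 applies to all of these values.

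Rbfox2 (Entrez 93686, GRCm38 chr15:77078990-77307004, minus strand), the most abundant Rbfox gene, was measured at 29.9, 33.6 and 27.1 RPKM in siNC 1 to 3 and at 28.8, 29.3 and 30.9 RPKM in siQk 1 to 3. The siQk libraries were close together, within the wider range of siNC. The fold was 0.967 with a 95% interval of 0.777 to 1.20, the narrowest log2 interval of the 8 members.

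Rbfox1 (Entrez 268859, GRCm38 chr16:5885355-7411526, plus strand) was low, at 0.526, 0.476 and 0.324 RPKM in siNC 1 to 3 and at 0.592, 0.350 and 0.475 RPKM in siQk 1 to 3, from 81.1 to 157 expected counts. The lowest library of each group, siNC 3 and siQk 2, lay below all the other 4. The fold was 1.05 with a 95% interval of 0.634 to 1.75, the widest log2 interval of the 8 members.

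Rbfox3 (Entrez 52897, GRCm38 chr11:118489762-118911597, minus strand) did not pass the filter on low counts and was not tested in the fit that gives the values above. Its expected counts were 13, 26 and 11 in siNC 1 to 3 and 20.4, 0 and 10 in siQk 1 to 3. Poisson intervals, which cover counting error only, ran from 5.49 to 38.1 counts over the siNC libraries. For the count of 0 in siQk 2 the two-sided interval reached 3.69 counts, and the floor of 3 counts at which it is drawn, a one-sided bound, corresponds to 0.0119 RPKM. NeuN transcript was thus low in both groups, at 10 to 26 counts apart from the 0 of siQk 2, and 36.7% of the genes listed had a lower siNC mean. When all genes with a count were tested, its log2 fold change was -0.73, with a 95% interval of -2.53 to 1.05 (edgeR adjusted p = 0.996).

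**Figure D2:**
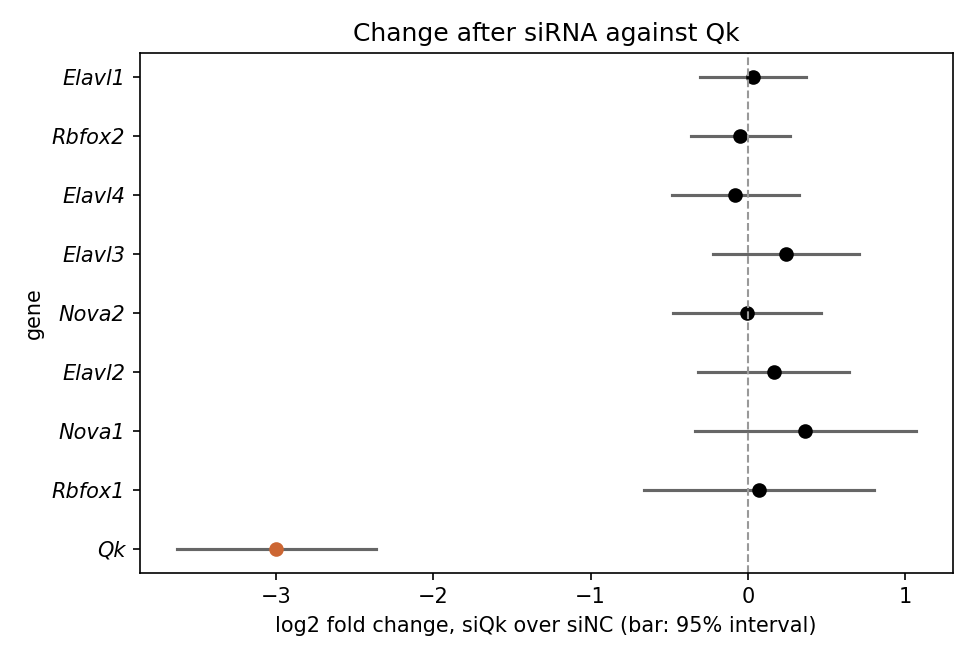
Fitted log2 fold change of siQk over siNC (points) with 95% intervals (bars) for the 8 members tested and Qk, from edgeR. Every member's interval includes 0, from -0.66 to 0.80 for Rbfox1 and from -0.34 to 1.07 for Nova1, while that of Qk runs from -3.63 to -2.36.

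A second readout is the share of each family's summed RPKM that a member takes, which does not depend on the scaling between libraries. Elavl1 took 51.7% ± 3.5 (SD, n = 3) of the Elavl sum in siNC and 51.7% ± 3.4 (SD, n = 3) in siQk. Elavl4 took 30.2% ± 5.0 and 27.7% ± 3.2, Elavl3 12.7% ± 3.4 and 14.8% ± 2.1, and Elavl2 5.42% ± 0.92 and 5.89% ± 0.51 (SD, n = 3 each). In the Nova family, Nova1 took 47.7%, 41.5% and 28.0% in siNC 1 to 3 and 47.4%, 49.1% and 44.2% in siQk 1 to 3. The low value of siNC 3 is the one seen in its RPKM, and the difference of means was 7.81 percentage points (two-sided exact permutation p = 0.3, adjusted over the 9 shares 0.9). That difference was 2.26 percentage points without siNC 3, 9.05 without siNC 2 and 12.1 without siNC 1. Rbfox2 took 97.7% to 98.8% of the Rbfox sum in the 6 libraries, Rbfox1 1.18% to 2.01%, and Rbfox3 at most 0.341%. The smallest exact p over the 9 shares was 0.3, and no share had groups that did not overlap.

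**Figure D3:**
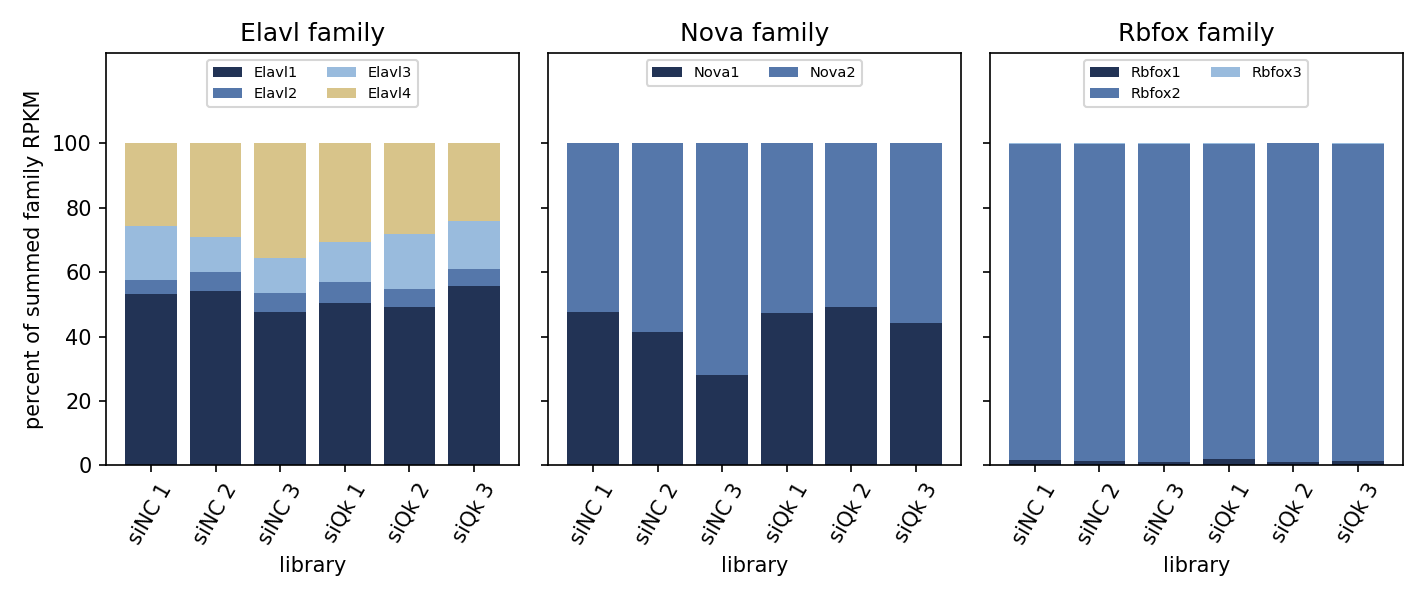
Share of the summed family RPKM taken by each member (stacked bars, percent) in each of the 6 libraries, for the Elavl, Nova and Rbfox families. Rbfox2 fills 97.7% to 98.8% of the Rbfox bars, Elavl1 47.7% to 55.6% of the Elavl bars, and Nova1 drops to 28.0% in siNC 3.

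The pattern of each member over the 6 libraries was also set beside that of every other gene tested, by Pearson's r of TMM-scaled log2 CPM. With 6 libraries high values are common, and they are given as a description only. Nova1 had r over 0.95 with 161 genes, among them H2afz and Rtel1, and Elavl1 with 101 genes, led by Lingo1, Sdk2 and Fuz. Elavl3 had 58 such genes (Homer3, Gtpbp6 and Apba3 first) and Rbfox1 57 (Elmo2, Nmi and Gap43 first). Nova2 had 14 (Camta1, Rnf145 and Mdga1 first), Rbfox2 10 (Rassf2, Fndc4 and 1700007L15Rik first), Elavl4 8 (Gyg, 1110008L16Rik and Nipa2 first) and Elavl2 5 (Syt14, Nrap and Narg2 first). No member was among the 3 genes most like another member. The r values of Nova1 rest largely on siNC 3, where its log2 CPM was 3.95, against 5.20 (siQk 2) to 5.42 (siQk 3) elsewhere.

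Genes known as targets of the members were described from lists, and none of those described here was called by the edgeR quasi-likelihood test.

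Of 10 transcripts known as bound or controlled by Elavl proteins, all tested, 2 had an unadjusted p under 0.05, both with lower siQk means, and the median log2 fold change was -0.13. Over all 12665 genes tested, 366 (2.89%) had such a p, 214 of them with lower siQk means. With 1 library left out, the median of the 10 transcripts ran from -0.20 without siQk 2 to -0.049 without siQk 3. Mapt, which encodes the microtubule protein tau, was at 21.4, 25.7 and 17.7 RPKM in siNC 1 to 3 and at 14.9, 17.6 and 14.2 RPKM in siQk 1 to 3. All siQk values of Mapt were below the siNC values, the lowest siNC value by a narrow margin, and the log2 change was -0.49 (SE 0.16, edgeR adjusted p = 0.9996). Myc, a growth regulator, had a fitted log2 value of -0.44 (SE 0.18, edgeR adjusted p = 0.9996), with 1 siQk library above the lowest siNC library. The third by p was Fos, at 0.61 (SE 0.50), where siQk 2 alone was high, at 13.8 RPKM.

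Of 10 genes with exons known as controlled by Nova, 5 were tested, 0 had an unadjusted p under 0.05, and the median log2 fold change was -0.05. Gphn, which encodes the receptor anchor gephyrin, had the smallest p of these, and its log2 change was -0.34 (SE 0.18, edgeR adjusted p = 0.9996). Of 10 genes with exons or transcripts known as controlled by Rbfox, all tested, 8 had a fold change above 0 and 2 below, 0 had an unadjusted p under 0.05, and the median log2 fold change was 0.22. Over all genes tested, 6438 were above 0 and 6227 below. Fn1, which encodes fibronectin, had non-overlapping groups, at 8.75, 7.496 and 9.12 RPKM in siNC 1 to 3 and 9.91, 13.5 and 10.4 RPKM in siQk 1 to 3 (log2 fold change 0.39, SE 0.17, edgeR adjusted p = 0.9996). These are gene totals, and inclusion of exons was not analysed here.

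Among the marker lists, 9 of 12 neuronal markers were tested, and 0 had an unadjusted p under 0.05. Their median change on the log2 scale was -0.06, which ran from -0.22 without siNC 3 to 0.10 without siQk 2. Of 8 motor neuron markers, 4 were tested, 2 with a fold change above 0 and 2 below, and their median log2 fold change was 0.06, which ran from -0.0040 without siNC 2 to 0.21 without siNC 1. The values were 0.21 for Isl2, -0.09 for Slc18a3 and -0.34 for Prph. Isl1, a transcription factor of motor neurons and the 1 of these with an unadjusted p under 0.05, was at 4.83, 4.75 and 4.80 RPKM in siNC 1 to 3 and at 9.63, 7.80 and 8.33 RPKM in siQk 1 to 3. Its groups did not overlap and its log2 fold change was 0.82 (SE 0.10), with an edgeR adjusted p of 0.9996. DESeq2 called it. Summed glial markers lay at 10.997 to 12.6 RPKM in siNC and 9.44 to 12.7 RPKM in siQk, with Aqp4 at 0 in all 6 libraries. Summed immune markers reached at most 0.222 RPKM, with Cx3cr1 at 0. Summed fibroblast markers lay at 3.13 to 5.34 RPKM in siNC and 0.972 to 2.98 RPKM in siQk, most of it Pdgfrb, a receptor of pericytes (log2 fold change -1.01, SE 0.61, edgeR adjusted p = 0.9996), with Lum at 0. Without 1 library the Pdgfrb value ran from -1.32 without siQk 1 to -0.64 without siQk 2.

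Leaving out each library in turn moved the fold changes of the members but called none. The fitted change of Elavl2, Elavl3 and Nova1 stayed above 0 in each of these fits, whereas that of Elavl1, Elavl4, Nova2, Rbfox1 and Rbfox2 changed sign in at least 1 of them.

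**Figure D4:**
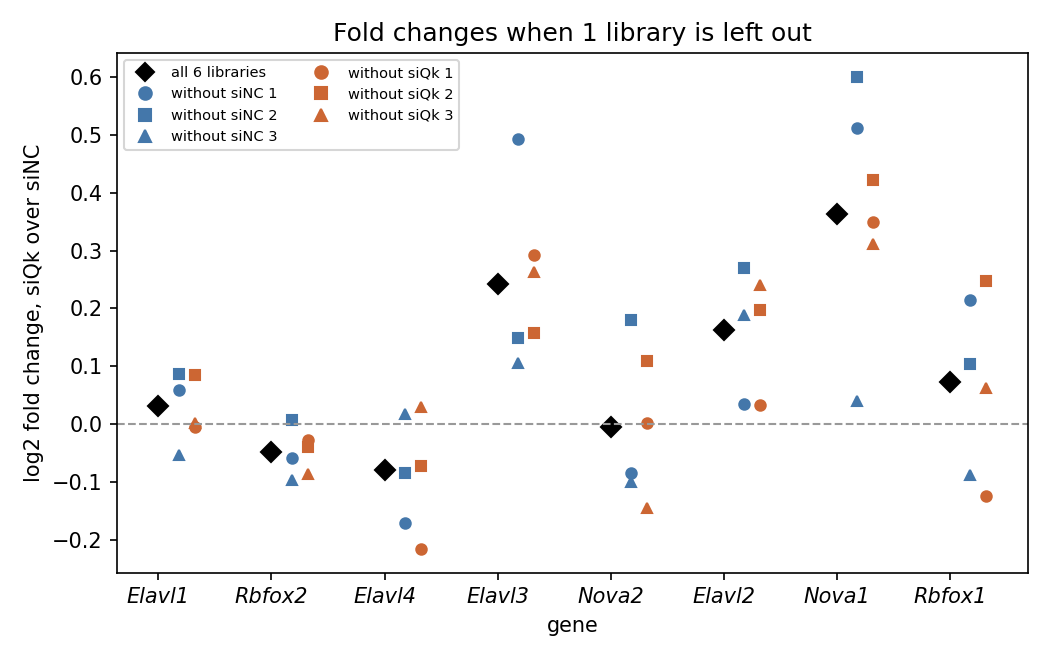
Log2 fold change of siQk over siNC for the 8 members tested, with all 6 libraries (black diamonds) and after leaving out 1 siNC (blue) or 1 siQk (orange) library. Nova1 goes from 0.36 to 0.04 without siNC 3, and Elavl3 from 0.24 to 0.49 without siNC 1.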

How the data were processed

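Poly-A RNA was prepared by the authors with the TruSeq RNA kit, version 2, and read as 75-base pairs on a NextSeq. OLego placed the reads and Quantas gave the values per gene. The labels name mm10. The deposited files hold, per gene, expected counts (tag numbers, of which 21.9% to 22.9% per library were not whole) and RPKM, which was rebuilt from those counts, exon length and library total. The files carry no coordinates, and positions, transcripts and sequences come from GENCODE release 21 (GRCm38).

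Expected counts were rounded and scaled by TMM, set again on the genes kept, those with a mean log2 CPM above 0. In R 4.3.3, edgeR 4.0.16 tested siQk over siNC by quasi-likelihood, with all 6 libraries in 1 fit. Called meant p under 0.01 and Benjamini-Hochberg adjusted p under 0.1, the cutoffs the study gives with its results. Its methods name edgeR but no test. Intervals are those the test implies, standard errors come from the spread of log2 CPM (prior count 2), and levels were compared by two-sided exact permutation over 20 arrangements. Labels call the libraries biological replicates. Sequences were aligned with Biopython 1.88. Scripts were tested on simulated data.

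Named genes are the members, Qk, up to 3 genes per list with the smallest p and the 3 most alike genes per member, and a few list members chosen after their values were seen. Some results under these rules are not reported here. The members and lists were chosen with earlier results of these data known. Map2 is not listed under that symbol. TMM was run both before and after the filter, and the order was settled after both had been seen; other orders of filter, rounding and library size were tried on counts over all genes. The alternatives were other scalings, filters and tests (DESeq2 1.42.0), a replicate block and each library left out. Deviations of same-numbered libraries correlated at 0.213, 0.018 and -0.170, and libraries were treated as unpaired. The intervals and the sum of neuronal Elavl genes were added after the data were seen.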

Additional observations from a re-analysis of the deposited data

How the results depend on the processing

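The count of members called stayed at 0 under every alternative run. 1 gene, Qk, was called except that the edgeR exact and likelihood-ratio tests called 5 genes each, DESeq2 19, and the fit without siNC 1 called 0, where Qk was at -3.09. Leaving out 1 library gave 0 to 1 called genes and Qk changes of -3.19 to -2.67. The replicate block gave Qk -2.95 and 1 called gene and changed no call. TMM factors set before the filter, an alternative added after seeing the data, gave Qk -3.01 and 1 called gene. The search for members under older symbols was not run, as all 9 are listed under current ones.

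Without 1 library the log2 fold change ran from 0.04 to 0.60 for Nova1, 0.11 to 0.49 for Elavl3, 0.03 to 0.27 for Elavl2, -0.054 to 0.086 for Elavl1 (-0.0050 without siQk 1), -0.216 to 0.029 for Elavl4, -0.15 to 0.18 for Nova2, -0.12 to 0.25 for Rbfox1 and -0.10 to 0.0075 for Rbfox2. Nova2, at -0.0051, also turned to 0.013 with total counts and 0.0024 with the replicate block. The difference in family share (siQk minus siNC, percentage points) ran from -1.98 to 1.29 for Elavl1, -0.054 to 0.777 for Elavl2, 1.01 to 4.02 for Elavl3, 2.26 to 12.1 for Nova1, -4.71 to 0.213 for Elavl4, -0.086 to 0.328 for Rbfox1 and -0.323 to 0.252 for Rbfox2. List medians ran from -0.018 to 0.133 for the members, -0.201 to -0.049 for Elavl-bound transcripts, -0.13 to 0.03 for Nova targets and 0.159 to 0.248 for Rbfox targets. Marker medians ran from -0.22 to 0.10 for neuronal, -0.0040 to 0.21 for motor neuron and -0.30 to 0.07 for glial markers. The causes were not tested. Each group had 3 libraries. Rbfox3, at 0 to 26 counts, was too low for the filter on low counts.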
